A study of Homo sapiens with 9 samples.

Results

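The mRNAs of 40 genes for ribosome biogenesis and for RNA polymerases I and III were followed in SW620 cells, an established colon cancer cell line, with and without streptomycin or dihydrostreptomycin. The genes were taken by symbol from the table of raw counts, which has 28307 genes, and all 40 were found and passed the filter on low counts that left 15619 genes. They fall into 7 role groups: 3 box C/D and 4 box H/ACA small nucleolar ribonucleoprotein (snoRNP) proteins, 6 nucleolar organisers, 10 small subunit and 11 large subunit assembly factors, 3 genes for RNA polymerase I and its factor UBTF, and 3 RNA polymerase III subunits. The study had 9 cultures in 3 groups of 3: streptomycin (SM) at 120 µM, dihydrostreptomycin (DSM) at 120 µM, and untreated, a dose that the design text gives as the EC50. The cells, labelled wild type, were kept in suspension in low-attachment plates in DMEM/F12 medium with N2, insulin, FGF and EGF, and were taken at 48 h in every group. The design text calls the 3 cultures of a group biological replicates, all of them from 1 cell line.

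Ribosome production starts in the nucleolus, where RNA polymerase I, with UBTF on the ribosomal DNA, transcribes the long precursor of the large ribosomal RNAs. SnoRNPs then guide its chemical modification, box C/D particles for methylation of the sugar and box H/ACA particles for pseudouridylation, while assembly factors cut the precursor and fold it into the small and the large subunit. RNA polymerase III makes the remaining ribosomal RNA and the transfer RNAs, and the transcription factor MYC is a known activator of most of these genes through E-box sites. SM is an antibiotic that binds the small ribosomal subunit of bacteria. DSM differs from it in the streptose sugar, where the aldehyde of SM is reduced to an alcohol. The libraries were made with a kit for mRNA, so the values below are mRNA levels of the factors, and ribosomal RNA and its precursor were not measured.

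Promoters of 32 of the 40 genes are in RefSeq (build GRCh38.p14), as windows from 250 bases before to 50 after the transcription start, and 8 of these genes have a second start, giving 40 windows. The E-box CACGTG, which reads the same on both strands, lay in a window of 15 of the 32 genes (46.9%), against 12% of the 11658 tested genes that have a window. Counted per window, it was in 37.5% of the 40 windows and in 7.26% of all 35116. The 16 copies are printed here because this motif, known as the site MYC binds, had the widest gap between these genes and the other promoters of those searched, with CACGTG in capitals and 9 bases on each side. A match is a description of the letters and is not a measured binding site. Of the 16 copies, 7 begin before the start of their window and 9 after it, and 14 lie within 50 bases of it. For GNL3, LYAR, GAR1 and DDX21 the copy is in the window of the start further inside the gene. Their window at the outer start holds none.
MRTO4 (chr1:19251810-19251833, plus strand): cttccgccgCACGTGgattcagcg
WDR43 (chr2:28894661-28894684, plus strand): acggacgaaCACGTGgctgcagcg
RRP9 (chr3:51941895-51941918, minus strand): ttcagctgcCACGTGagttctgcg
GNL3 (chr3:52686029-52686052, plus strand): ttcagttcaCACGTGgcgccagcg
NOP14 (chr4:2963377-2963400, minus strand): gcggcccggCACGTGtcttagggt
LYAR (chr4:4290071-4290094, minus strand): cggcgagtcCACGTGctccccgcg
GAR1 (chr4:109815784-109815807, plus strand): ccagaggggCACGTGgcgccggtg
BYSL (chr6:41921518-41921541, plus strand): ttcagtcccCACGTGcgatccttc
DDX21 (chr10:68956607-68956630, plus strand): cgggtgtccCACGTGgtccccggc
POLR3A (chr10:78029536-78029559, minus strand): ggaagcggaCACGTGggacactct
NOP2 (chr12:6568242-6568265, minus strand): tccggattgCACGTGgagggccgc
UTP20 (chr12:101280086-101280109, plus strand): ttttccgtcCACGTGacccactca
NOP10, first copy (chr15:34343292-34343315, minus strand): gggacactcCACGTGttttagcct
NOP10, second copy (chr15:34343133-34343156, minus strand): attgacgaaCACGTGacgcggtcg
FBL (chr19:39846359-39846382, minus strand): gctcttttcCACGTGcgaaagccc
PES1 (chr22:30591883-30591906, minus strand): ttggcagggCACGTGcgggaggaa
Of the other motifs searched on both strands, CCGGAAG, the core read by ETS factors, was in windows of 12 genes (37.5%, against 20.9% of tested genes). The GC box GGGCGG was in 23 (71.9%, against 74.2%), CCAAT in 12 (37.5%, against 42.6%) and TATAAA in 1, UTP20 (3.12%, against 8.9%).

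The libraries held 39315662 to 65562227 counts in genes, with 18316 to 19613 genes detected, and the 40 genes took 1.28% to 1.41% of the counts. The lowest count of any of the 40 in any library was 897. Libraries of a group differed by more than counting noise, with a chi-square per degree of freedom of 6.80 to 35.7 between 2 of them. Of 12 colon epithelium markers 9 reached 1 CPM (counts scaled to a common library total), led by the keratins KRT8, KRT18 and KRT19. The others, KRT20, LGALS4 and CDX1, had mean CPM of 0.27, 0.32 and 0.0021. The sum of the 12 was 11304 to 13547 CPM in SM, 11595 to 14556 in DSM and 11827 to 14878 in untreated cells. Fibroblast markers summed to at most 27.2 CPM, leukocyte markers to at most 29.5 and endothelial markers to at most 6.86 in any library, with COL3A1, DCN and FAP at 0 throughout.

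The 40 genes span a wide range of levels. Per kilobase of merged exons, mean CPM over the 9 libraries was highest for the nucleolar proteins NCL (755) and NPM1 (741), followed by the methyltransferase FBL (247) and the box C/D core protein NOP56 (236). The lowest was the polymerase III subunit POLR3G (7.45), below UTP15 (9.85) and WDR12 (10.6). The order among genes close in level depends on the exon annotation used for length, here GENCODE.

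As a whole, the 40 mRNAs stayed within a few percent of the untreated level under either compound. The module mean, the mean log2 CPM of the 40 genes in a library, was 7.48, 7.64 and 7.60 in the SM cultures with replicate numbers 1, 2 and 3. It was 7.45, 7.58 and 7.52 in the DSM cultures and 7.46, 7.57 and 7.54 in the untreated cultures. The 3 groups overlapped, and in each of them the culture numbered 1 was the lowest and the culture numbered 2 the highest. The group means were 7.57 ± 0.082 for SM, 7.51 ± 0.064 for DSM and 7.52 ± 0.061 for untreated cells (SD, n = 3 each).

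**Figure D1:**
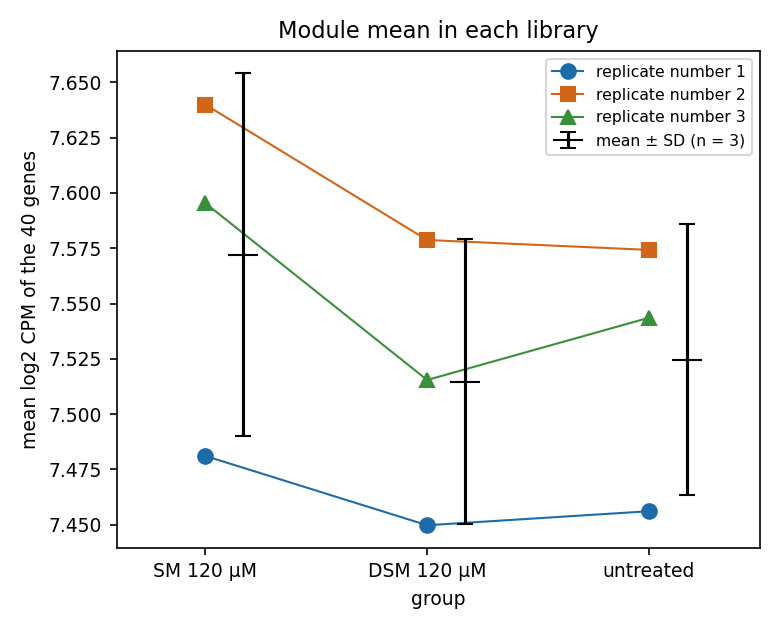
Mean log2 CPM of the 40 genes in each of the 9 libraries, with lines joining cultures of the same replicate number and black bars for the group mean ± SD (n = 3). The SM culture lies above the untreated and the DSM culture of its number in 3 of 3 cases, and the spread between numbers within a group is wider than the spread between group means.

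Within same-numbered cultures the SM module mean was above the untreated one by 0.025, 0.066 and 0.052 (log2) and above the DSM one by 0.031, 0.061 and 0.080. On average this is 0.047 above untreated, or 3.35%, and 0.057 above DSM, or 4.06%. The DSM module mean differed from the untreated one by -0.006, 0.004 and -0.028, on average -0.010, or -0.69%. No test is given for the module mean, since its members were chosen with results of these libraries known, and the comparisons share libraries: both compounds are set against the same untreated cultures. The middle level among the 40 genes, their median log2 CPM, differed by -0.0043 between SM and untreated cells. That value reads only the genes of middle level, and the sum of the CPM of the 40 gave 0.038 (log2). The libraries are bulk and scaled to their totals, so fewer cells with an mRNA and less of it per cell cannot be told apart.

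With group as the only term of edgeR's quasi-likelihood test, none of the 40 genes differed in any comparison at a Benjamini-Hochberg adjusted p under 0.05. Over all genes the same test called 0.0192% in SM against untreated, 0% in DSM against untreated and 0% in SM against DSM. The 3 genes called were AKR1C2, AKR1C3 and GPX2, none of them a member, and they are named here after their values were seen. At an unadjusted p under 0.05 edgeR counted 0 of the 40 in SM against untreated (2.34% of all genes), 0 in DSM against untreated (0.659%) and 1, GAR1, in SM against DSM (2.54%). DESeq2 also called 0 of the 40 in each comparison. Over all genes it called 14 in SM against untreated, 0 in DSM against untreated and 11 in SM against DSM. With so few genes called, its 0 of the 40 is no result about the members. Limma voom called 0 of the 40 as well, and its count over all genes is not given here.

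The replicate numbers were taken to pair the cultures across groups, and a fit with the number as a block narrowed the errors. With the block, edgeR called 2.74% of all genes in SM against untreated, 0% in DSM against untreated and 3.88% in SM against DSM. Of the 40 genes it called 0 in SM against untreated, 0 in DSM against untreated and 3 in SM against DSM: GAR1, RRP12 and POLR3G, all higher in SM. Genes called higher in SM made up 1.73% of all genes in that comparison. At an unadjusted p under 0.05 the block fit counted 10 of the 40 in SM against untreated (25%, against 14.8% of all genes), 1, BOP1, in DSM against untreated (2.5%, against 4.16%) and 15 in SM against DSM (37.5%, against 16.2%). DESeq2 with the block called 0 of the 40 in SM against untreated (3.21% of all genes), 0 in DSM against untreated (0%) and 1, RRP12, in SM against DSM (4.05%).

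The direction of the small differences was shared by most of the genes in both comparisons of SM. The log2 fold change was positive for 34 of 40 in SM against untreated (all genes 49.7%) and for 36 of 40 in SM against DSM (all genes 50.2%), but for 18 of 40 in DSM against untreated (all genes 49.6%). Medians over the 40 were 0.05 in SM against untreated, -0.01 in DSM against untreated and 0.05 in SM against DSM, each beside a median of 0.00 over all genes. SM was above untreated in 3 of 3 same-numbered pairs for 20 of the 40, against 17.4% of all genes, and below it in 3 of 3 for 1, GRWD1, against 18.9%. DSM was above untreated in 3 of 3 pairs for 4, NOP58, NCL, LYAR and UTP15, against 14.3%, and below it for 13, against 15.1%. SM was above DSM in 3 of 3 pairs for 17, against 16.3%, and below it for 0, against 16.2%. The genes move together across libraries, so these counts are not independent of each other and carry no p.

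The intervals give the precision of each fold change, gene by gene and without adjustment for the number of genes, and they depend on the fit. With the block, the 95% intervals of the 40 log2 fold changes lay between -0.13 and 0.29 in SM against untreated, between -0.21 and 0.15 in DSM against untreated and between -0.09 and 0.35 in SM against DSM. Without it they reached from -0.25 to 0.45, from -0.45 to 0.26 and from -0.16 to 0.55 in the same order of comparisons.

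**Figure D2:**
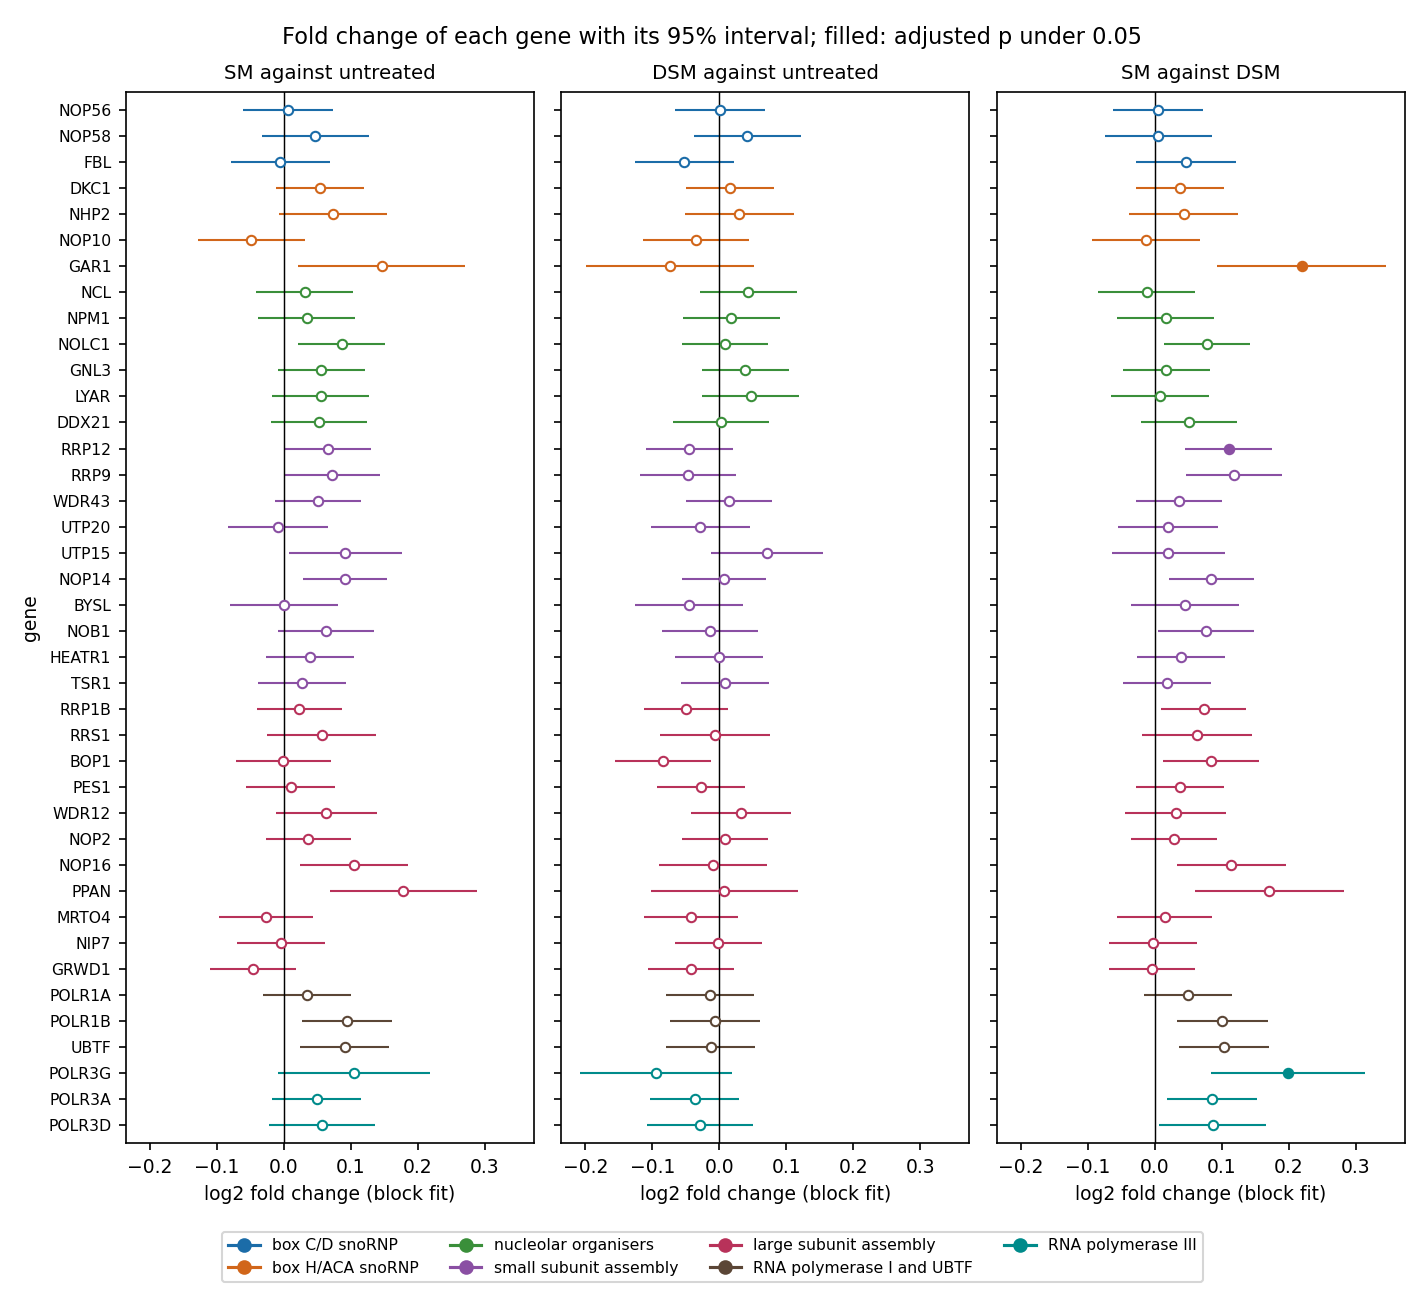
Log2 fold change of each of the 40 genes in 3 comparisons from the fit with the replicate block, with 95% intervals, coloured by role. Filled points have an adjusted p under 0.05: GAR1, RRP12 and POLR3G in SM against DSM and no gene in the other 2 panels.

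Of the snoRNP proteins, the box C/D core stayed close to the untreated level. NOP56, which scaffolds the box C/D particle with NOP58, had 529, 617 and 561 CPM in SM cultures 1 to 3, 543, 595 and 560 in DSM cultures and 545, 588 and 563 in untreated cultures. The 3 groups overlapped fully, with a log2 fold change of 0.01 (SE 0.061, edgeR adjusted p = 0.9999) in SM against untreated. In the box H/ACA particle, DKC1, the pseudouridine synthase, had 291, 313 and 315 CPM in SM, 285, 315 and 295 in DSM and 285, 307 and 293 in untreated cultures. Each SM value was above the untreated value of its number by a few percent, and the log2 fold change was 0.05 (SE 0.053, edgeR adjusted p = 0.9999). The other 5 snoRNP genes had log2 fold changes in SM against untreated between -0.05 for NOP10 and 0.15 for GAR1, both of them partners of DKC1.

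The nucleolar organisers include NCL and NPM1, and all 6 had small positive values in SM against untreated, from 0.03 to 0.09 (log2). NCL, the nucleolin gene, had 2938, 3022 and 3214 CPM in SM, 2957, 3195 and 3098 in DSM and 2923, 3069 and 2982 in untreated cultures. Its groups overlapped, with log2 fold changes of 0.03 in SM against untreated (SE 0.047, edgeR adjusted p = 0.9999) and -0.01 in SM against DSM (SE 0.047, adjusted p = 0.9998). In DSM against untreated it was 0.04 (SE 0.047, edgeR adjusted p = 0.99999), with DSM above untreated in 3 of 3 pairs, by 0.017, 0.058 and 0.055. NOLC1, a nucleolar partner of snoRNPs, had the highest value of the 6 in SM against untreated, 0.09, and was above untreated in 3 of 3 pairs.

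Among the small subunit factors, 9 of 10 had positive log2 fold changes in SM against untreated and 4 of 10 in DSM against untreated. NOB1, the nuclease that makes the last cut of the small subunit RNA, had 343, 403 and 376 CPM in SM, 350, 361 and 350 in DSM and 343, 369 and 360 in untreated cultures. SM cultures 2 and 3 were the highest of the 9 and SM culture 1 was level with untreated culture 1, and the log2 fold change was 0.07 (SE 0.058, edgeR adjusted p = 0.9999). RRP12, whose yeast homologue takes part in the nuclear export of pre-ribosomal particles, is described with the called genes. RRP9, the protein that binds the U3 snoRNA, missed the threshold in SM against DSM, with a log2 fold change of 0.12 (SE 0.035, edgeR adjusted p = 0.0571) with the block.

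Of the large subunit factors, 8 of 11 had positive log2 fold changes in SM against untreated and 4 of 11 in DSM against untreated. PES1, BOP1 and WDR12 form a complex needed to process the large subunit RNA, and PES1, with the highest level per kilobase of the large subunit factors, had 307, 342 and 327 CPM in SM, 306, 322 and 322 in DSM and 312, 325 and 332 in untreated cultures. Its groups overlapped, with a log2 fold change of 0.01 (SE 0.049, edgeR adjusted p = 0.9999) in SM against untreated. BOP1 had log2 fold changes of 0.00 in SM against untreated and -0.08 in DSM against untreated with the block (edgeR adjusted p = 0.9989 and 0.9993).

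PPAN, the homologue of a yeast factor for large subunit assembly, had the largest value of the 40 in SM against untreated. It had 20.8, 27.6 and 25.7 CPM in SM, 20.0, 23.5 and 22.1 in DSM and 19.5, 22.7 and 23.1 in untreated cultures. Each SM culture was above the DSM and the untreated culture of its number, while SM culture 1 was below untreated cultures 2 and 3. With the block the log2 fold change against untreated was 0.18 (SE 0.053, edgeR adjusted p = 0.0743), and without SM culture 1 it was called, beside 3.58% of all genes. PPAN shares 83.2% of its exon bases with the readthrough gene PPAN-P2RY11, whose row holds 0 counts in every library. GRWD1, a chaperone for a large subunit protein, was the gene lower in SM than in untreated cells in 3 of 3 pairs, with pair values of -0.078, -0.010 and -0.050 (log2), and its adjusted p with the block was 0.533 in edgeR.

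All 3 polymerase I genes had positive values in SM against untreated in 3 of 3 pairs and small negative ones in DSM against untreated. POLR1A, the largest subunit, had 229, 221 and 222 CPM in SM, 213, 215 and 222 in DSM and 217, 218 and 221 in untreated cultures. Its SM libraries all lay above its untreated libraries, by a narrow gap, with a log2 fold change of 0.03 (SE 0.038, edgeR adjusted p = 0.9999). It was the 1 gene of the 40 whose SM and untreated libraries did not overlap with SM higher, a pattern seen in 3.28% of all genes. UBTF, the factor that opens ribosomal DNA for polymerase I, had 192, 222 and 224 CPM in SM, 186, 198 and 208 in DSM and 186, 200 and 212 in untreated cultures. SM was the highest of the 3 groups at every number, and with the block the log2 fold change was 0.09 against untreated (SE 0.032, edgeR adjusted p = 0.154) and 0.10 against DSM (SE 0.032, adjusted p = 0.0754). POLR1B, the second largest subunit, had 0.09 (adjusted p = 0.140 in edgeR) and 0.10 (adjusted p = 0.0885) in the same fits.

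The polymerase III subunits had the highest mean log2 fold change of the 7 role groups in SM against DSM, 0.12. The 3 values ran from 0.09 to 0.19, with POLR3G the highest, and the polymerase I group had a mean of 0.085. The 24 other listed genes of polymerase III and its factors had a median of 0.022 in this comparison. POLR3A, the largest subunit, had 135, 145 and 140 CPM in SM, 128, 133 and 135 in DSM and 129, 142 and 135 in untreated cultures. Its SM libraries did not overlap its DSM libraries, and the same held for NOP16, a large subunit factor, while 3.41% of all genes showed this with SM higher. For POLR3A the log2 fold change in SM against DSM was 0.09 (SE 0.050, edgeR adjusted p = 0.9998), and with the block the adjusted p was 0.166. For NOP16 the block gave 0.11 (edgeR adjusted p = 0.114). POLR3D had 0.09 in the same comparison (edgeR adjusted p = 0.259 with the block).

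The 3 genes called in SM against DSM with the block met the threshold by a small margin. GAR1, a box H/ACA core protein (chr4:109815510-109824737 in GRCh38.p14), had 18.6, 22.8 and 22.6 CPM in SM, 16.4, 19.2 and 19.3 in DSM and 19.3, 19.5 and 18.8 in untreated cultures. SM cultures 2 and 3 were the highest of the 9, and SM culture 1 lay below DSM cultures 2 and 3. The log2 fold change of SM against DSM was 0.22 (SE 0.061, 95% interval 0.09 to 0.35, edgeR adjusted p = 0.0439 with the block), a 1.16-fold difference. Without the block it was 0.22 (SE 0.093, edgeR adjusted p = 0.9998), and DESeq2 with the block gave an adjusted p of 0.0710. GAR1 was also the 1 gene that moved apart from the module, defined as a deviation from the mean of the other 39 genes that has the same sign in 3 of 3 pairs and averages at least 0.15. Its deviations in SM against DSM were 0.15, 0.19 and 0.15 (log2), averaging 0.17, while against untreated they changed sign between pairs for both compounds. When the libraries were scaled so that the module mean was level, its adjusted p was 0.1104 (edgeR, block), and 0 of the 40 were called beside 8.37% of all genes. That scaling takes the mean difference of these same 40 genes off every gene. Both counts therefore follow in part from the scaling and are no test of the members.

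POLR3G, the polymerase III subunit known for its expression in stem cells and tumours (chr5:90473929-90514557), had 23.6, 29.7 and 31.5 CPM in SM, 21.1, 28.7 and 24.3 in DSM and 21.6, 30.2 and 27.5 in untreated cultures. SM was above DSM at every number, most at number 3, but the SM culture numbered 2 was below the untreated one. The log2 fold change of SM against DSM was 0.20 (SE 0.056, 95% interval 0.08 to 0.31, edgeR adjusted p = 0.0453 with the block). Against untreated it was 0.10 for SM (SE 0.055, adjusted p = 0.390) and -0.09 for DSM (SE 0.055, adjusted p = 0.9993) in the same edgeR fit. POLR3GL, the subunit that takes its place in most adult cells, had 13.97, 15.04 and 15.94 CPM in SM, 15.1, 14.9 and 16.7 in DSM and 15.4, 13.0 and 16.1 in untreated cultures, with no call in any comparison.

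RRP12 (chr10:97356357-97401370) had 171, 209 and 195 CPM in SM, 158, 188 and 187 in DSM and 163, 195 and 192 in untreated cultures. SM was the highest and DSM the lowest group at every number. The log2 fold change of SM against DSM was 0.11 (SE 0.031, 95% interval 0.05 to 0.18, edgeR adjusted p = 0.0489 with the block), a 1.08-fold difference, and DESeq2 with the block gave an adjusted p of 0.0350.

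**Figure D3:**
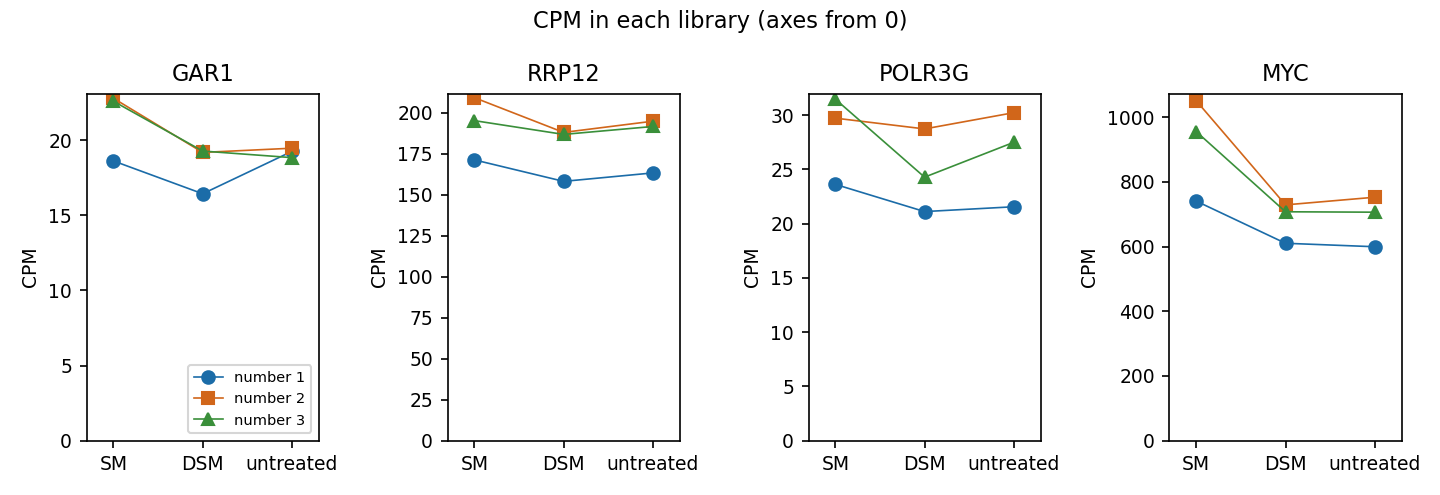
CPM of GAR1, RRP12, POLR3G and MYC in each library, with lines joining cultures of the same replicate number and axes starting at 0. In SM against DSM the SM culture of all 4 genes lies above the DSM culture of its number, by log2 differences from 0.049 to 0.37 for POLR3G and from 0.28 to 0.53 for MYC.

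These calls turned on single libraries. In the block fit, leaving out DSM culture 2, DSM culture 3, untreated culture 2 or untreated culture 3 left 0 of the 40 called in SM against DSM, while 1.80%, 1.67%, 2.99% and 2.67% of all genes were called in those 4 fits. Leaving out the 3 libraries numbered 1 also left 0, beside 4.01% of all genes. Without SM culture 1, GAR1, NOB1, PPAN and UBTF were called (4 genes), beside 5.33% of all genes. Without SM culture 2 the call was POLR3G (2.57% of all genes), without SM culture 3 RRP12 (2.05%), without DSM culture 1 NOP16 (3.69%) and without untreated culture 1 GAR1 (2.88%).

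The replicate number accounted for more of the spread of these genes than the treatment. It took 81.3% of the sum of squares of the module mean over the 9 libraries, the group 16.2% and the rest 2.49%. The module mean averaged 7.46 over the cultures numbered 1, 7.60 over number 2 and 7.55 over number 3. In an edgeR quasi-likelihood test for any difference among the 3 numbers, 31 of the 40 genes were called (77.5%), against 40.7% of all genes. Of the 31 genes, 30 were lowest in number 1 (96.8%), against 45.3% of all genes called. Without the untreated culture numbered 1, 16 of the 40 were called. The share of all genes in that single fit is not given here, so this count is no result about the members. Over all fits that left out 1 library, the members called ranged from 16 to 31 and all genes called from 4546 to 6736. What the numbers share, such as a passage or a day, is not given in the sources used here.

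**Figure D4:**
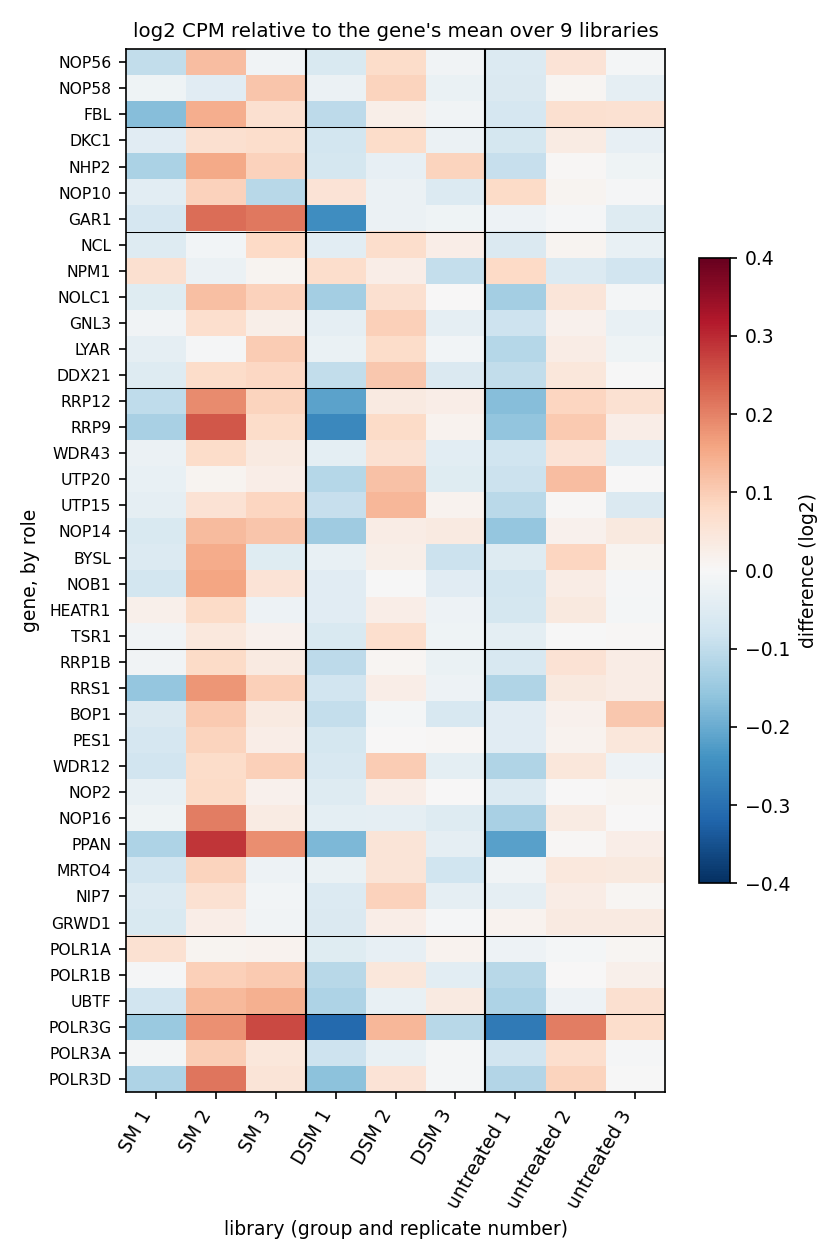
Log2 CPM of each gene in each library relative to the gene's own mean over the 9 libraries, genes grouped by role and libraries by group and replicate number. The first column of each group of 3, replicate number 1, is the lowest for most genes, and NPM1 shows the opposite order.

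The widest range over the numbers was that of POLR3G, 0.42 (log2), followed by RRP9 with 0.33, PPAN with 0.29, RRP12 with 0.26 and POLR3D with 0.25. The exception among the 31 was NPM1, the nucleophosmin gene, which was highest in number 1 in all 3 groups (edgeR adjusted p = 0.0150). It had 2015, 1899 and 1942 CPM in SM, 2028, 1963 and 1806 in DSM and 2040, 1858 and 1828 in untreated cultures. NOP10 also had its lowest mean elsewhere, in number 3, and POLR1A in number 2, and neither was called.

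**Figure D5:**
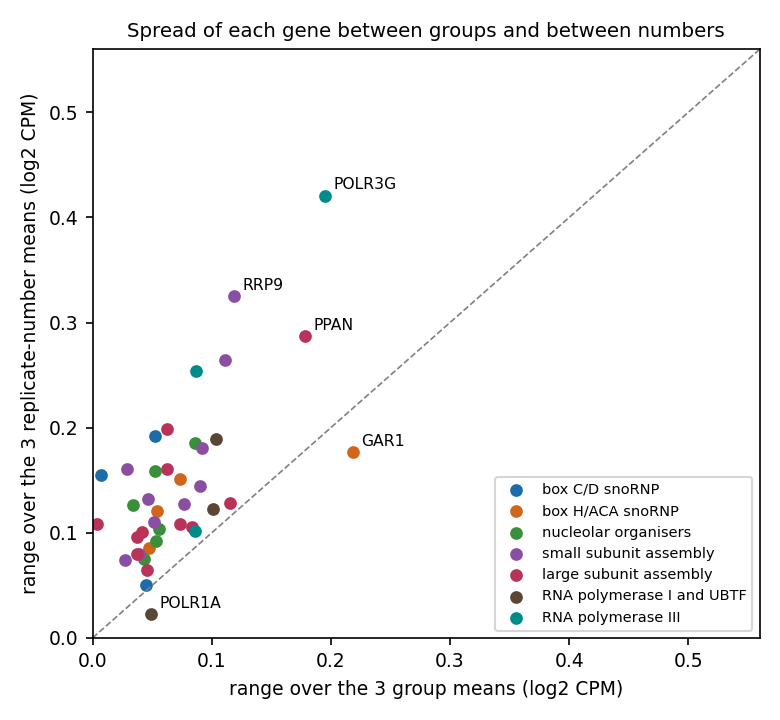
Range of each gene's log2 CPM over the 3 replicate-number means against its range over the 3 group means, coloured by role, with a dashed line where the 2 are equal. All genes but GAR1 and POLR1A lie above the line, and POLR3G is at the top with 0.42.

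For 38 of the 40 genes the range over numbers was wider than the range over groups (95%), against 76.6% of all genes. The median range over numbers was 0.13 for the 40 and 0.20 for all genes, and over groups 0.055 for the 40 and 0.098 for all genes. The exceptions were GAR1, with 0.18 over numbers and 0.22 over groups, and POLR1A, with 0.023 over numbers and 0.049 over groups.

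Few of the other genes of the pathway were called. Of 188 further genes in 8 lists (small subunit processome, large subunit assembly, polymerase I, polymerase III and its factors, nuclear exosome, snoRNP assembly, MYC and its partners, and snoRNA host genes), 184 are in the table and 182 were tested. With group only, edgeR and DESeq2 each called 0 of them in each comparison. DESeq2 called 14 of all genes in SM against untreated, 0 in DSM against untreated and 11 in SM against DSM. At an unadjusted p under 0.05 edgeR counted 3 in SM against untreated (all genes 2.34%), 0 in DSM against untreated (all genes 0.659%) and 4 in SM against DSM (all genes 2.54%). With the block edgeR called 4 of 182 (2.198%) in SM against untreated, 0 in DSM against untreated and 5 (2.75%) in SM against DSM, all higher in SM. These shares are below those of all genes, 2.74% and 3.88%. DESeq2 with the block called 5 in SM against untreated, where it added DIS3, 0 in DSM against untreated, and 4 in SM against DSM, where it did not call RSL24D1. Log2 fold changes were positive for 141 of 182 in SM against untreated (all genes 49.7%), 86 in DSM against untreated (all genes 49.6%) and 136 in SM against DSM (all genes 50.2%).

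MYC had the lowest adjusted p among these lists. It had 741, 1051 and 956 CPM in SM, 610, 729 and 708 in DSM and 600, 753 and 707 in untreated cultures. SM was the highest group at every number, but SM culture 1 lay below untreated culture 2. With the block MYC rose in SM by a log2 fold change of 0.41 against untreated (SE 0.038, edgeR adjusted p = 3.66e-07), or 1.33-fold, and by 0.41 against DSM (SE 0.038, adjusted p = 2.97e-07). In DSM against untreated it was -0.01 (SE 0.038, adjusted p = 0.9993), and without the block the adjusted p in SM against untreated was 0.9999. None of the 40 genes differed by as much as MYC: their values in the block fit of SM against untreated ended at 0.18, that of PPAN. The 15 genes with an E-box had a median log2 fold change of 0.05 in that fit (range -0.05 to 0.15). For the 17 matched genes without one it was also 0.05 (range -0.05 to 0.18). In DSM against untreated the medians were -0.028 with and 0.0016 without an E-box, and in SM against DSM 0.037 and 0.038. Genes without a promoter window, among them RRP12 and POLR3G, are in neither set. Whether MYC acts on the 40 genes in these cultures was not tested.

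The other edgeR calls with the block were the following. MXI1, a MAX partner that opposes MYC, had 10.0, 19.1 and 16.1 CPM in SM, 8.55, 12.9 and 11.2 in DSM and 7.79, 13.8 and 12.3 in untreated cultures, and rose by 0.41 against untreated (SE 0.070, edgeR adjusted p = 9.70e-04) and by 0.45 against DSM (SE 0.071, adjusted p = 3.52e-04). GAS5, a noncoding host transcript of snoRNAs, rose by 0.23 against untreated (SE 0.044, adjusted p = 0.00332) and by 0.22 against DSM (SE 0.044, adjusted p = 0.00379) in the same fit. Of the large subunit list, SURF6 rose by 0.12 against untreated (SE 0.034, edgeR adjusted p = 0.0493), and MAK16 and RSL24D1 were higher in SM than in DSM by 0.14 (SE 0.036, adjusted p = 0.0241) and 0.20 (SE 0.052, adjusted p = 0.0420). For RSL24D1 the 3 pairs differed widely, by 0.006, 0.19 and 0.40, and DESeq2 with the block did not call it.

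Regulators of the polymerases were not called. RRN3, which brings polymerase I to its promoter, had 90.2, 86.1 and 82.2 CPM in SM, 88.2, 85.0 and 81.2 in DSM and 87.8, 85.4 and 81.5 in untreated cultures. MAF1, the repressor of polymerase III, had 86.7, 98.7 and 102 CPM in SM, 85.9, 90.1 and 92.1 in DSM and 86.8, 91.7 and 100.04 in untreated cultures, with a log2 fold change of 0.10 in SM against DSM (SE 0.036, edgeR adjusted p = 0.145 with the block). The genes with the highest CPM in the lists where edgeR made no call had log2 fold changes in SM against untreated of -0.01 for UTP4 and 0.01 for NAT10 (small subunit processome), 0.05 for POLR1D and 0.02 for TAF1D (polymerase I), and -0.02 for GTF3A and -0.02 for GTF3C1 (polymerase III factors). For DIS3, a nuclease of the exosome, it was 0.11 (edgeR adjusted p = 0.0583 with the block, while DESeq2 with the block called it), and for its partner MTREX -0.01. For TCOF1, a nucleolar partner of polymerase I, it was 0.07, and for RUVBL2, a snoRNP assembly helicase, 0.03.

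Some rows share exon bases with a neighbour, and the strand setting of the counting is not given in the sources used here. In all, 14 of the 40 genes overlap a gene of the table and 6 over more than 10% of their exon bases: PPAN, NHP2 with RMND5B (43.8%), HEATR1 with LGALS8 (23.9%), TSR1 with SRR (21.4%), NOP14 with NOP14-AS1 (12.9%) and NOP16 with HIGD2A (12.3%). Reads of these stretches could belong to either gene, so these values are less certain. NOP2 (70.9%), NOB1 (24.7%) and RRS1 (11.4%) also share exon bases with annotated genes that have no row in the table, AC006064.6, AC092115.3 and AC009879.2, and the same holds for them.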

How the data were processed

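RNA of 9 SW620 cultures was sequenced with an mRNA kit, per the labels' protocols, 3 each with SM, with DSM and untreated. The authors deposited whole-number read counts per gene, without normalization, and these were the values used. Per the submitters' processing notes, the build was hg38, with TopHat2 2.1.1, featureCounts 2.0.0, DESeq2 1.26.0, the read trimmer cutadapt 3.4, bcl2fastq 2.20.0.422, and the quality tools MultiQC 1.10.1 and FastQC 0.11.9. Settings for strand, multi-mapping reads and annotation were not given in the sources used here. The deposited normalized table was not used.

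The tests used edgeR 4.0.16, with limma 3.58.1 and DESeq2 1.42.0 as alternatives, in R 4.3.3. filterByExpr (minimum count 10, minimum total 15) left 15619 of 28307 genes, and libraries were scaled by TMM (factors 0.981 to 1.02). A quasi-likelihood model of all 9 libraries had group as its term. P-values were two-sided and Benjamini-Hochberg adjusted over all tested genes, with a threshold of 0.05. CPM used TMM library sizes, and log2 CPM a prior count of 2. Positions and promoters come from RefSeq GRCh38.p14, exon lengths from GENCODE. The code was tested on simulated data.

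The labels number the cultures 1 to 3 in each group. Deviations from group means correlated at 0.227 to 0.582 for the same number and at -0.404 to 0.161 for different numbers. The deviations cancel out within a group, which by itself pulls the correlations of different numbers down. Number 1 stood out most, at 0.531 to 0.582. For numbers 2 and 3 the same number gave 0.227 to 0.342, beside 0.104 to 0.161 between 2 and 3. The numbers were taken to pair the cultures, less clearly for 2 and 3, and the replicate block is given where it changes a call.

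The 40 genes and the lists were chosen with earlier results of these data known. Values in every library are given for genes called in either fit, for genes moving apart from the module and for the gene with the highest mean CPM in each role. Of other lists, up to 4 called genes or, with none, the 2 with the highest mean CPM are named, besides MYC, POLR3GL, RRN3 and MAF1. Others named with values were chosen after their values were seen: PPAN, UBTF, POLR1B, NPM1, GRWD1, BOP1, NOLC1, RRP9, NOP10, POLR3D and NOP16. P-values of the fit with group only are set against the spread between cultures of 1 cell line. Those of the fit with the block are set against the spread left after the replicate number is taken out.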

Additional observations from a re-analysis of the deposited data

How the results depend on the processing

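Over 33 settings of the gene tests, 0 of the 40 genes were called in DSM against untreated, 1 was called at least once in SM against untreated (PPAN) and 7 in SM against DSM. The share of all genes called at least once was not counted. The sign changed in at least 1 setting for 21, 29 and 25 genes in SM against untreated, DSM against untreated and SM against DSM. Some settings hold the module mean level, which takes its difference off every gene. Small values can change sign there by construction, and the calls over all genes there also follow in part from the scaling. The number of all genes called depended most on the replicate block. In SM against untreated it was 3 with group only, 428 with the replicate block, 385 with the block in DESeq2, 437 with the block in limma voom and 928 with the block and the module mean held level. It was 0 with the module mean held level, 0 with 2 groups only, 5 with no filter on low counts and 14 with DESeq2, all without the block. In SM against DSM it was 0 with group only, 606 with the replicate block, 510 with the block in DESeq2, 610 with the block in limma voom and 1308 with the block and the module mean held level, and 3 with no filter and 11 with DESeq2 without the block. Members called in SM against DSM were 3 with the replicate block, 1 with the block in DESeq2 and 3 with the block in limma voom. With all 9 libraries the block in edgeR changed no other call among the 40. Leaving out the libraries numbered 1, chosen after seeing the data, gave 73 genes in SM against untreated and 186 in SM against DSM without the block, and 308 and 627 with the replicate block, where DSM against untreated gave 1, DDIT4. The cause of these differences was not tested.

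Leaving out 1 library at a time gave 0 to 3 genes without the replicate block and 149 to 569 with it in SM against untreated, 0 and 265 to 846 in SM against DSM, and 0 in DSM against untreated, with 0 of the 40 genes without the block, and with it 0 to 1, 0 to 4 and 0. The module mean difference ranged from 0.013 to 0.093 in SM against untreated, from -0.044 to 0.022 in DSM against untreated and from 0.024 to 0.10 in SM against DSM. Genes called by replicate number ranged from 4546 to 6736, and members from 16 to 31. With other summaries of the module, its median gave -0.0043, -0.052 and 0.047 and its summed CPM 0.038, 0.0081 and 0.030 (log2) in SM against untreated, DSM against untreated and SM against DSM, so the sign turned for the first under the median and for the second under the sum. All moved within 1 SD of the libraries within a group, a spread that includes the replicate number. The SD of the same-numbered pair differences was smaller, 0.021 in SM against untreated. The move there from 0.047 with the mean to -0.0043 with the median was larger than that SD. The lowest count of a member in a library was 897, and counting error was not compared with the spread between cultures gene by gene. It is not small beside that spread for every gene. GAR1, among the genes with the fewest counts, had 19.2 ± 0.32 CPM in untreated cultures (SD, n = 3).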
